A study of Schizosaccharomyces pombe with 9 samples.

Results

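The mating pheromone signalling genes of fission yeast (Schizosaccharomyces pombe) were followed here as 10 rows of a gene count table of 4915 rows, chosen by their systematic identifiers. They are mfm2 (SPAC513.03), mam2 (SPAC11H11.04), map3 (SPAC3F10.10c), gpa1 (SPBC24C6.06), ste6 (SPCC1442.01), ste4 (SPAC1565.04c), byr2 (SPBC1D7.05), byr1 (SPAC1D4.13), spk1 (SPAC31G5.09c) and ste11 (SPBC32C12.02). All 10 were in the table and all 10 passed the filter on low counts. Polyadenylated RNA was sequenced from cells in log phase in the rich medium YEA at 32 °C. Every strain has the chromatin remodeler Mit1 fused to the Tet repressor, called TetR-Mit1. The first group, clr4oe, combines TetR-Mit1 with a modification labelled clr4oe (2 libraries analysed here). In the second, K587A, the Mit1 of the fusion has the substitution K587A (3 libraries). The third, TetR-Mit1, has the fusion alone (3 libraries). The labels give 1 strain number for each genotype, which leaves genotype and strain impossible to tell apart, and they give no mating type. Nothing in them says that the replicates are separate cultures, so p-values measure only the spread between these libraries.

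Haploid cells of opposite mating type, M and P, secrete peptide pheromones and sense those of the other type through receptors coupled to a G protein. The signal passes with the help of Ras1 through a cascade of mitogen-activated protein kinases (MAPK). It acts together with Ste11, the transcription factor that turns on genes for mating and entry into meiosis. Ste11 is best known as a factor switched on by nitrogen starvation and held down in rich medium, the condition sampled here.

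Total counts ran from 10367168 to 15920802 per library. Across genes, log2 CPM of libraries of the same genotype had a Pearson's r of 0.996 to 0.997 (7 pairs), against 0.945 to 0.981 for libraries of different genotypes (21 pairs). The gene clr4 had 279 ± 7.70 CPM in clr4oe (SD, n = 2), 58.1 ± 2.49 CPM in K587A and 56.1 ± 4.08 CPM in TetR-Mit1 (SD, n = 3 each). The gene mit1 had 350 ± 9.16 CPM in clr4oe (SD, n = 2), 534 ± 14.2 CPM in K587A and 386 ± 6.72 CPM in TetR-Mit1 (SD, n = 3 each). CPM stands for TMM-normalised CPM, a gene's count relative to the library's total after scaling by the trimmed mean of M-values (TMM).

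The main difference lay in K587A. The 4 genes of the pathway that were lowest there relative to TetR-Mit1 were ste11, the adaptor gene ste4, the G protein gene gpa1 and the kinase gene byr1, at 41.6%, 43.6%, 64.5% and 71.8% of the TetR-Mit1 level. The genes for the ligand and for the receptor of M cells did not pass the test in K587A, and the receptor gene of P cells was 1.23-fold higher. That receptor gene, map3, lies under the opposite-strand gene his6, and the strand setting of the counts is not given. In clr4oe the folds against TetR-Mit1 were between 0.779 and 1.24 for all 10 genes. There ste11, ste4, gpa1 and byr1 changed less than in K587A, while spk1, byr2 and ste6 changed more. Set directly against K587A, clr4oe was 2.10-fold higher for ste4 and 1.89-fold higher for ste11.

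In K587A against TetR-Mit1, 6 of the 10 genes were called at an adjusted p under 0.05: map3 was higher, and ste11, ste4, gpa1, byr1 and spk1 were lower, which makes 1 higher and 5 lower. Over all 4887 tested genes the same rule called 52.3%, with 27.3% higher and 25% lower. The share of the 10 that was called is therefore near the background, and the excess is in the lower direction. A change of at least 2-fold was found for ste11 and ste4, which is 2 of the 10, against 1.8% of all tested genes. The median log2 fold change was -0.17 for the 10 genes and 0.01 for all tested genes. In clr4oe against TetR-Mit1, 5 of the 10 were called, 2 higher and 3 lower, against 65.1% of all tested genes (32.1% higher, 33% lower), and the medians were -0.02 for the 10 genes and -0.00258 for all tested genes. None of the 10 changed 2-fold there, against 4.32% of all tested genes. In clr4oe against K587A, 8 of the 10 were called, 6 higher and 2 lower, against 71.7% of all tested genes (35.4% higher, 36.4% lower), and the medians were 0.38 for the 10 genes and -0.01 for all tested genes. There ste4 changed at least 2-fold, against 7.8% of all tested genes, but its log2 fold change of 1.07 was 0.85, under 2-fold, without clr4oe replicate 2. Both comparisons with TetR-Mit1 share its libraries, and both with K587A share that group's, so the 3 sets of counts are not independent. The 10 genes were chosen with earlier results of these data known, so a share above the background describes them and is not a test.

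The libraries of the compared genotypes did not overlap for 7 of the 10 genes in K587A against TetR-Mit1 (2 higher and 5 lower), where 58.7% of all tested genes did not overlap (30.2% higher, 28.5% lower). In clr4oe against TetR-Mit1 they did not overlap for 6 (3 higher and 3 lower), against 74.9% of all tested genes (36.7% higher, 38.1% lower). In clr4oe against K587A they did not overlap for 9 (6 higher and 3 lower), against 79.2% of all tested genes (38.7% higher, 40.5% lower). These shares are near the background or below it, except in the higher direction of clr4oe against K587A and the lower direction of K587A against TetR-Mit1.

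**Figure D1:**
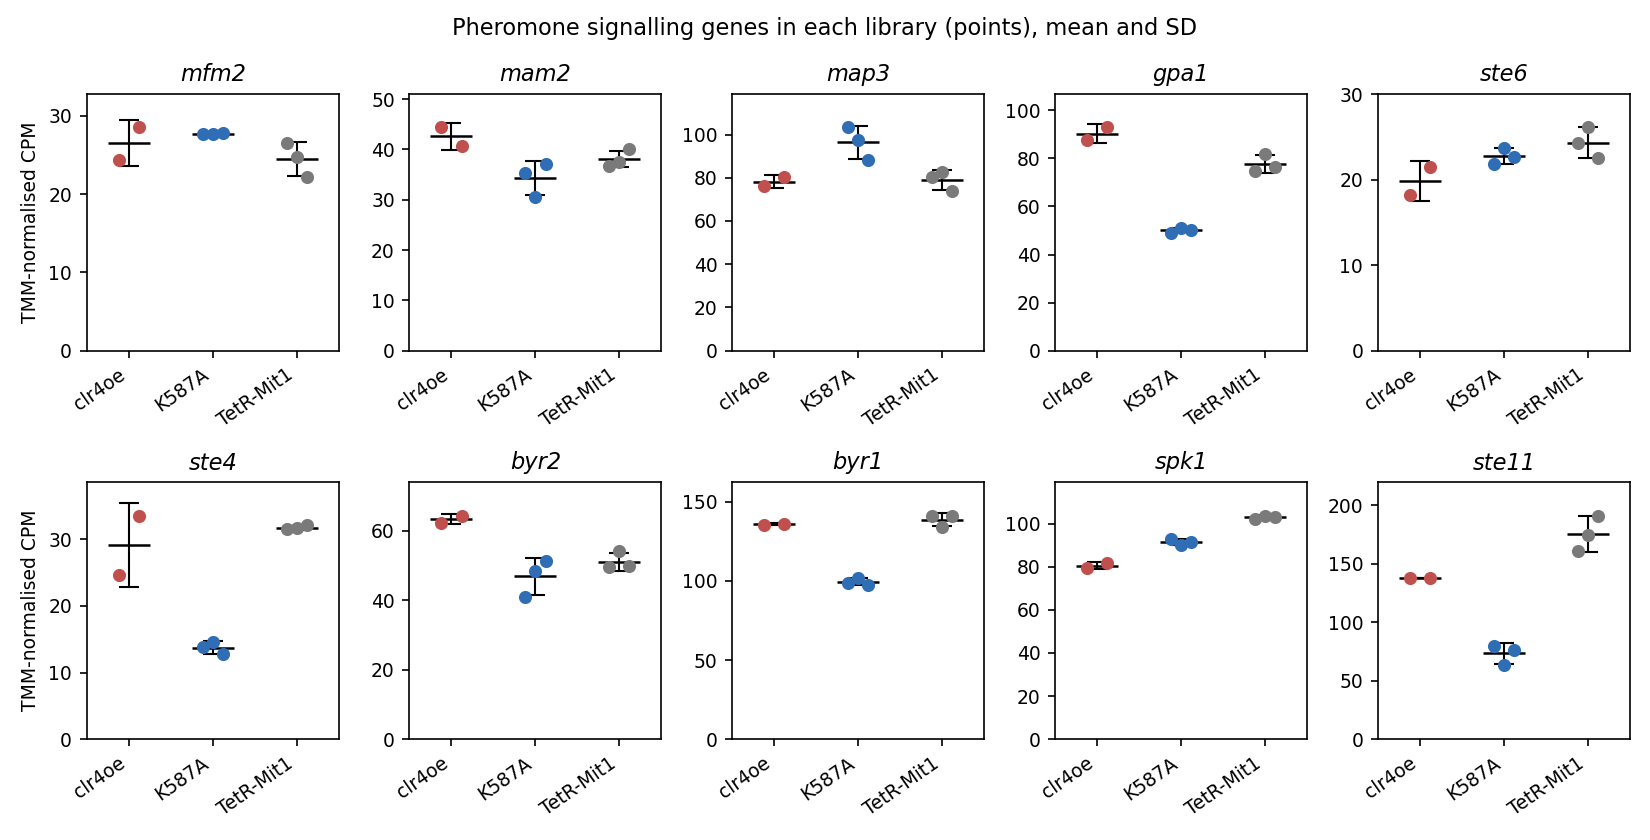
TMM-normalised CPM (vertical axes, from 0) of the 10 pheromone signalling genes in clr4oe (red), K587A (blue) and TetR-Mit1 (grey). Points are libraries, and the bars give the mean and SD; the K587A points of ste11, ste4, gpa1 and byr1 lie below all points of the other genotypes.

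**Figure D2:**
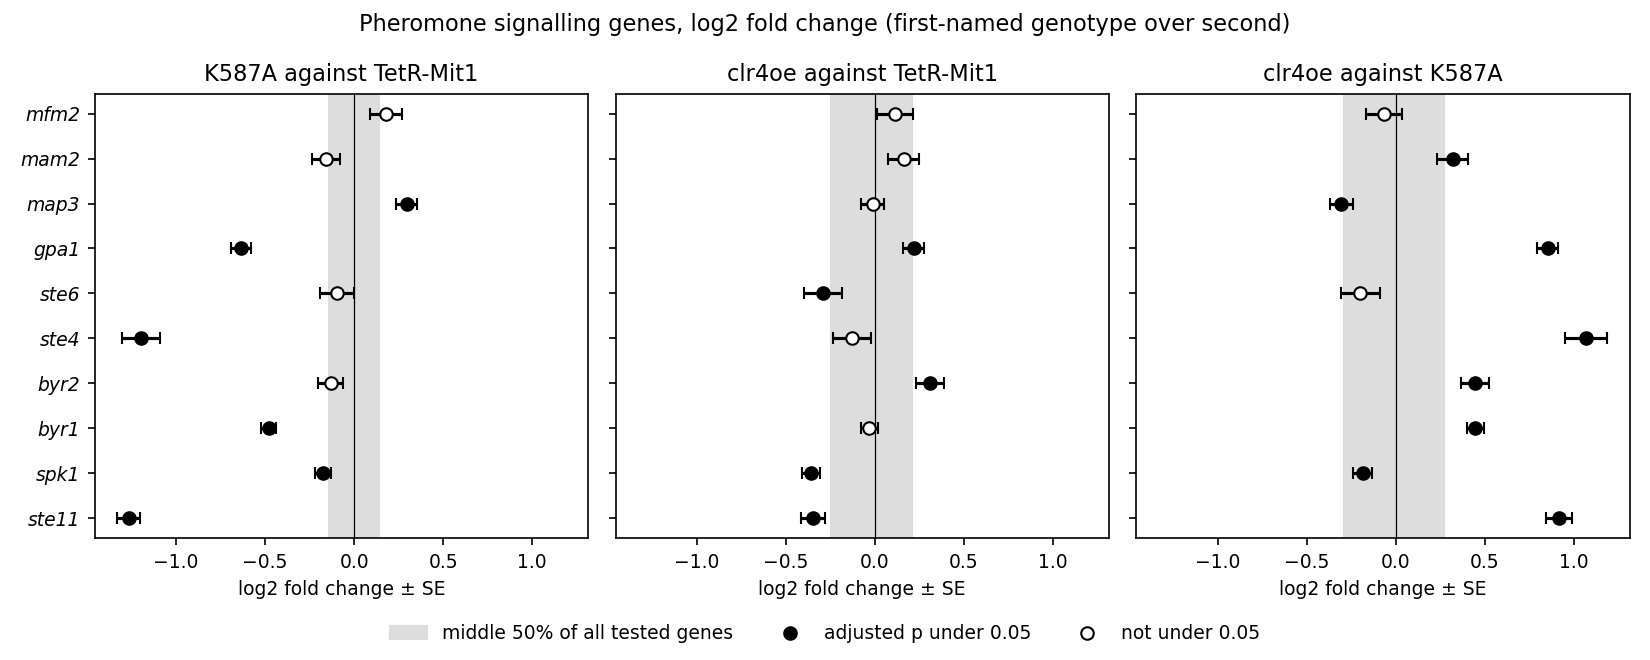
Log2 fold changes (horizontal axes) with their standard errors for the 10 genes in the 3 comparisons, the first-named genotype over the second. Filled points have an adjusted p under 0.05, and the grey band holds the middle 50% of all tested genes; ste11 and ste4 lie farthest left in K587A against TetR-Mit1.

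Ste11 is an HMG-box transcription factor and the regulator at the end of the pathway. Its gene had 138 and 138 CPM in the clr4oe libraries, 79.8, 63.5 and 76.7 CPM in the K587A libraries, and 161, 175 and 191 CPM in the TetR-Mit1 libraries. All 3 K587A libraries were below both clr4oe libraries, and these were below all 3 TetR-Mit1 libraries. The log2 fold change was -1.27 ± 0.07 (SE) in K587A against TetR-Mit1 (edgeR adjusted p = 1.75e-14), or 2.41-fold lower. It was -0.35 ± 0.07 in clr4oe against TetR-Mit1 (edgeR adjusted p = 7.61e-05) and 0.92 ± 0.07 in clr4oe against K587A (edgeR adjusted p = 2.56e-11). Among the 10 genes ste11 had the highest CPM in TetR-Mit1. By mean CPM it lay above 68.3% of tested genes in clr4oe, 44.2% in K587A and 77.8% in TetR-Mit1. Non-coding genes with no row in the count table are annotated on the other strand over parts or all of ste11, gpa1, byr1, byr2 and ste6.

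A set of short sequences is shown here because Ste11 is known to activate genes through a DNA element called the TR box. The letters TTCTTTGTT were searched on both strands in the 500 bases upstream of each annotated transcript start of the RefSeq assembly ASM294v3. They occurred upstream of 4 of the 10 genes (ste11, ste4, spk1 and ste6), against 145 of 5113 protein-coding genes (2.84%). The sites are given 5′ to 3′ on the strand that carries the box, with the box in capitals. They include 2 sites of mei2, a gene known as a target of Ste11 and described further on.
ste11, 127 bases upstream: aaagttgaatTTCTTTGTTtgattttcat
ste4, 54 bases upstream: tgagtatgctTTCTTTGTTataaaagtag
spk1, 187 bases upstream: gtcgcgcataTTCTTTGTTtacactaact
spk1, 62 bases upstream: caaagaaagtTTCTTTGTTaatgtattgc
spk1, 50 bases upstream: caaagaaactTTCTTTGTTattgtaagtt
ste6, 180 bases upstream: ttttgggaatTTCTTTGTTtactaacaat
mei2, 160 bases upstream: gccgaccgatTTCTTTGTTcctattttaa
mei2, 138 bases upstream: attttaaagtTTCTTTGTTttacaaaccc

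Each printed run of 29 bases matched ASM294v3 at a single place. The ste11 site is at chrII:3983239-3983267 (plus strand), the ste4 site at chrI:1296579-1296607 (minus) and the ste6 site at chrIII:1765896-1765924 (minus). The spk1 sites are at chrI:3001687-3001715 and chrI:3001562-3001590 (both plus) and chrI:3001550-3001578 (minus), and the last 2 runs overlap, so that each holds part of the other's box, on the opposite strand, in its lower-case bases. The mei2 sites are at chrI:4515167-4515195 and chrI:4515145-4515173 (both minus). Distances run from the annotated transcript start to the base of the box farthest from it. The submitters' processing notes name ASM294v2, and no position here was taken from the count table.

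The 4 genes with the box did not share a response. In K587A against TetR-Mit1, ste11 and ste4 were more than 2-fold lower, spk1 was 1.13-fold lower and ste6 did not pass the test. The genes gpa1 and byr1, both lower in K587A, had no match to the full box. The part of the box in these values was not tested. The last 7 letters of the box, CTTTGTT, which are part of every full match, occurred upstream of 7 of the 10 genes, adding mam2, mfm2 and gpa1, against 16.5% of all protein-coding genes. No match was found for map3, byr1 and byr2. A match describes these windows and is not evidence of binding.

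**Figure D3:**
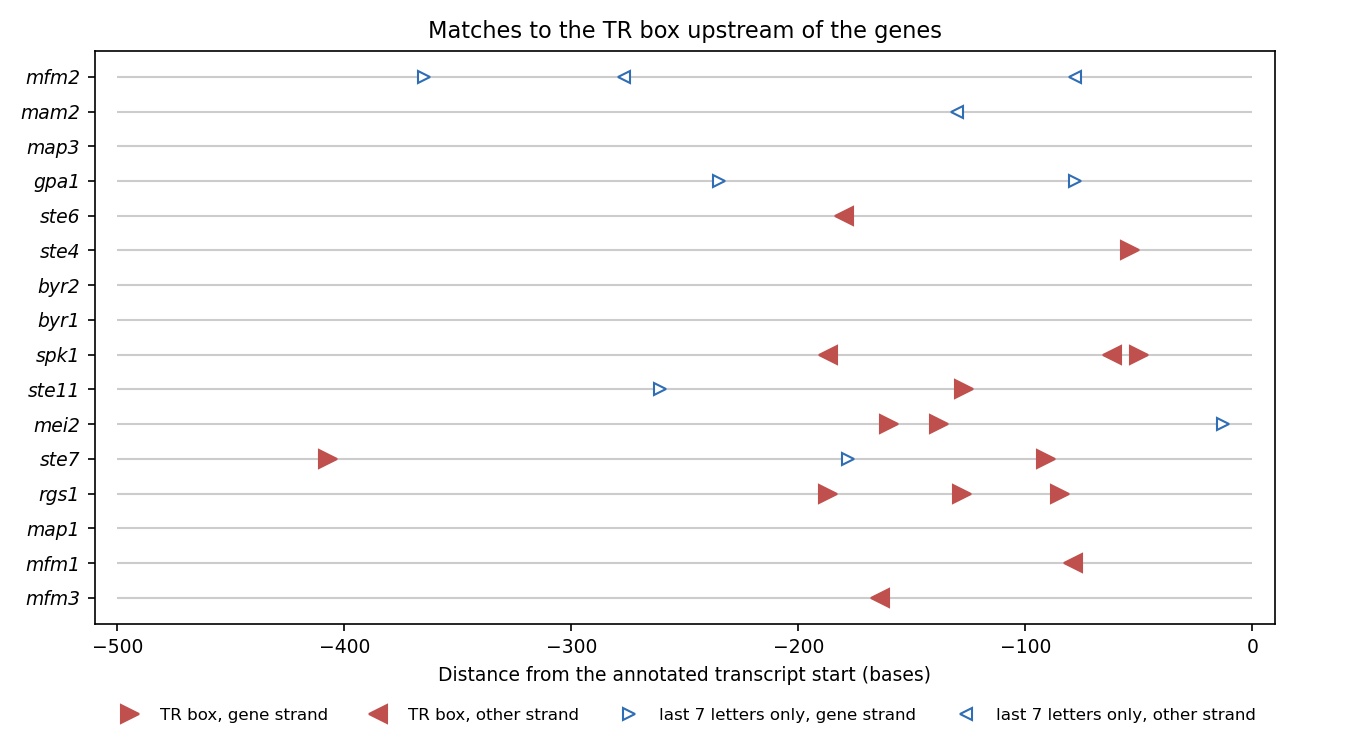
Positions of matches to the TR box (filled red) and to its last 7 letters alone (open blue) in the 500 bases before the annotated transcript start, in bases (horizontal axis), for the 10 genes and 6 further genes of the pathway. Triangles pointing right are on the strand of the gene. Among the 10, ste11, ste4, spk1 and ste6 carry the full box. The list genes mam4, rep1 and tor1, which also carry it, are not drawn.

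Of the ligand genes, mfm2 is one of a small family that encodes the precursor of M-factor, the lipid-modified peptide released by M cells. It had 24.4 and 28.6 CPM in clr4oe, 27.7, 27.6 and 27.8 CPM in K587A, and 26.6, 24.7 and 22.2 CPM in TetR-Mit1. The K587A libraries lay just above the TetR-Mit1 ones, and the clr4oe libraries overlapped with both. No comparison passed the threshold, and the log2 fold changes were 0.18 ± 0.09 in K587A (edgeR adjusted p = 0.1) and 0.11 ± 0.10 in clr4oe (edgeR adjusted p = 0.337), each against TetR-Mit1. The transcripts of mfm2 and of its relatives mfm1 and mfm3 shared at most 11 consecutive bases, a run far shorter than the one of 48 bases shared by mfm1 and mfm3.

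The receptor genes moved in different ways. Mam2 is the receptor for P-factor, used by M cells. Its gene had 44.4 and 40.7 CPM in clr4oe, 35.3, 30.6 and 37.1 CPM in K587A, and 36.8, 37.5 and 40.0 CPM in TetR-Mit1. The clr4oe libraries were the highest, and K587A overlapped with TetR-Mit1. Clr4oe exceeded K587A by a log2 fold change of 0.32 ± 0.09 (edgeR adjusted p = 0.00204). Neither comparison with TetR-Mit1 passed: -0.16 ± 0.08 in K587A (edgeR adjusted p = 0.0933) and 0.16 ± 0.08 in clr4oe (edgeR adjusted p = 0.101). Without K587A replicate 3 the K587A value passed at -0.21 (edgeR adjusted p = 0.0484).

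Map3 is the receptor for M-factor, used by P cells. Its gene had 76.1 and 80.5 CPM in clr4oe, 103, 97.6 and 88.1 CPM in K587A, and 80.1, 82.8 and 73.9 CPM in TetR-Mit1. It was the only one of the 10 genes that was called higher in K587A than in TetR-Mit1, with a log2 fold change of 0.30 ± 0.06 (edgeR adjusted p = 0.000144). On ASM294v3 the map3 transcript of 1758 bases lies under the opposite-strand gene his6 over 1755 bases. The strand setting of the counts is not given, and reads of the 2 genes cannot be told apart without it. The his6 row moved with map3, by a log2 fold change of 0.39 ± 0.06 in K587A against TetR-Mit1 (edgeR adjusted p = 3.08e-06), and its part in the map3 value was not tested. In clr4oe, map3 was at 0.992 of its TetR-Mit1 level (log2 -0.01 ± 0.07, edgeR adjusted p = 0.883).

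Gpa1 is the G protein alpha subunit that carries the signal of both receptors. Its gene had 87.7 and 93.0 CPM in clr4oe, 49.2, 50.8 and 50.1 CPM in K587A, and 74.7, 82.0 and 76.3 CPM in TetR-Mit1. The genotypes did not overlap, with clr4oe above TetR-Mit1 and K587A below. Its log2 fold change was -0.63 ± 0.06 in K587A against TetR-Mit1 (edgeR adjusted p = 7.24e-10). It was 0.22 ± 0.06 in clr4oe against TetR-Mit1 (edgeR adjusted p = 0.00211), and 0.85 ± 0.06 in clr4oe against K587A (edgeR adjusted p = 3.86e-12).

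Ste6, in fission yeast, is the exchange factor that activates Ras1 for mating, and shares only its name with the pheromone transporter of budding yeast. Its gene had 18.2 and 21.5 CPM in clr4oe, 21.8, 23.7 and 22.7 CPM in K587A, and 24.3, 26.2 and 22.5 CPM in TetR-Mit1. K587A overlapped with TetR-Mit1 and did not pass (log2 -0.09 ± 0.09, edgeR adjusted p = 0.417). Clr4oe was lower than TetR-Mit1 by a log2 fold change of -0.29 ± 0.11 (edgeR adjusted p = 0.0187). That call was lost without TetR-Mit1 replicate 2 (log2 -0.24, edgeR adjusted p = 0.0832) and without clr4oe replicate 1 (log2 -0.18, edgeR adjusted p = 0.249). Clr4oe against K587A did not pass (log2 -0.20 ± 0.11, edgeR adjusted p = 0.104), and it did without clr4oe replicate 2 (log2 -0.31, edgeR adjusted p = 0.0483).

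The MAPK cascade runs from the adaptor Ste4 and the kinase Byr2, which Ras1 helps to activate, through the kinase Byr1 to the MAPK Spk1. The ste4 gene had 24.7 and 33.6 CPM in clr4oe, 13.9, 14.6 and 12.7 CPM in K587A, and 31.5, 31.6 and 32.1 CPM in TetR-Mit1. All K587A libraries were below all others, and the clr4oe libraries fell on either side of the TetR-Mit1 ones. The log2 fold change was -1.20 ± 0.11 in K587A against TetR-Mit1 (edgeR adjusted p = 7.41e-10), or 2.29-fold lower. In clr4oe against TetR-Mit1 it was -0.13 ± 0.11 (edgeR adjusted p = 0.305). That value rested on single libraries, at -0.36 without clr4oe replicate 2 (edgeR adjusted p = 0.0127) and 0.08 without clr4oe replicate 1 (edgeR adjusted p = 0.553).

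The byr1 gene had 135 and 136 CPM in clr4oe, 98.9, 102 and 97.6 CPM in K587A, and 141, 134 and 141 CPM in TetR-Mit1. Its K587A libraries were below all others, while clr4oe overlapped with TetR-Mit1. The log2 fold change was -0.48 ± 0.04 in K587A (edgeR adjusted p = 7.41e-10) and -0.03 ± 0.05 in clr4oe (edgeR adjusted p = 0.565), each against TetR-Mit1. The non-coding gene SPNCRNA.674 is annotated on the other strand over the whole byr1 transcript of 1739 bases and has no row in the count table.

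In K587A, spk1 was 1.13-fold lower than in TetR-Mit1 and byr2 did not pass the test. The spk1 gene had 79.2 and 81.5 CPM in clr4oe, 92.7, 90.3 and 91.4 CPM in K587A, and 102, 104 and 103 CPM in TetR-Mit1. It was the only one of the 10 that was lower in clr4oe than in both K587A and TetR-Mit1 at the threshold. Its log2 fold change was -0.36 ± 0.05 in clr4oe (edgeR adjusted p = 1.13e-06) and -0.17 ± 0.05 in K587A (edgeR adjusted p = 0.00256), each against TetR-Mit1. The spk1 transcript overlaps the opposite-strand gene hem4 over 1525 of its 1973 bases. The hem4 row was lower in clr4oe by a log2 fold change of -0.25 ± 0.06 (edgeR adjusted p = 0.000585) and at -0.03 ± 0.05 in K587A (edgeR adjusted p = 0.708), each against TetR-Mit1, and its part in the spk1 value was not tested.

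The byr2 gene had 62.4 and 64.4 CPM in clr4oe, 41.0, 48.5 and 51.3 CPM in K587A, and 49.5, 54.2 and 49.8 CPM in TetR-Mit1. The clr4oe libraries were above all others, and K587A overlapped with TetR-Mit1. The log2 fold change was 0.31 ± 0.08 in clr4oe against TetR-Mit1 (edgeR adjusted p = 0.00111) and 0.44 ± 0.08 in clr4oe against K587A (edgeR adjusted p = 2.1e-05). In K587A against TetR-Mit1 it was -0.13 ± 0.07 (edgeR adjusted p = 0.13), and it passed without K587A replicate 3 (log2 -0.19, edgeR adjusted p = 0.0459).

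Levels of different genes were compared as CPM per kb of annotated transcript. In TetR-Mit1 the order ran from byr1 at 79.7 ± 2.37, through mfm2 (54.8 ± 4.91), spk1 (52.3 ± 0.392), map3 (44.9 ± 2.61), ste11 (43.7 ± 3.79), gpa1 (35.6 ± 1.76), mam2 (30.9 ± 1.36), ste4 (29.7 ± 0.290) and byr2 (22.3 ± 1.14), to ste6 at 8.44 ± 0.631 (SD, n = 3). The ranges of mfm2 and spk1 overlapped, as did those of map3 and ste11 and those of mam2 and ste4. In K587A, ste11 was at 18.2 ± 2.15 and ste4 at 12.9 ± 0.892 CPM per kb (SD, n = 3), places 8 and 9 of the 10. In clr4oe, ste11 was at 34.3 ± 0.0417 CPM per kb (SD, n = 2), place 7. These places are not a firm order. The ste11 range in clr4oe lay inside that of mam2 at place 6 (32.98 to 35.99), and in K587A it overlapped that of byr2 at place 7. The order depends on the length used: per kb of coding sequence, mfm2, whose coding part is 135 of 447 bases, came before byr1 in each genotype. By that measure ste11, whose coding part is 1407 of 4025 bases, took place 5 in K587A and place 3 in clr4oe and in TetR-Mit1.

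**Figure D4:**
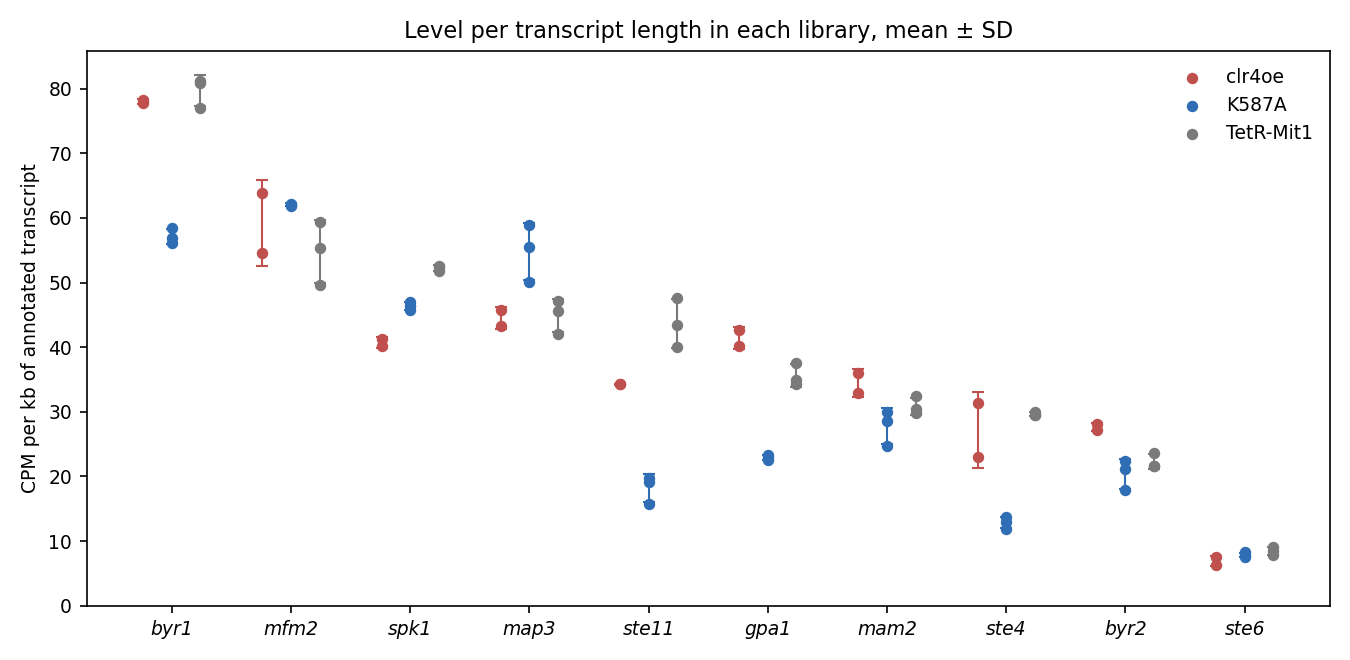
CPM per kb of annotated transcript (vertical axis, from 0) for the 10 genes, in the order of their TetR-Mit1 means. Points are libraries of clr4oe (red), K587A (blue) and TetR-Mit1 (grey) with mean ± SD bars; ste6 is lowest in each genotype.

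Of the other ligand genes, map2 and mfm1 had low counts. The P-factor gene map2 had 1.17 and 1.57 CPM in clr4oe, 1.10, 1.64 and 1.32 CPM in K587A, and 0.974, 2.47 and 1.67 CPM in TetR-Mit1. The M-factor gene mfm1 had 2.21 and 1.36 CPM in clr4oe, 1.57, 1.05 and 0.815 CPM in K587A, and 1.18, 1.38 and 1.67 CPM in TetR-Mit1. For both genes the libraries of all 3 genotypes overlapped, with 8 to 34 counts per library. The remaining M-factor gene, mfm3, was not low for its short transcript of 270 bases, with 25.01 and 28.6 CPM per kb in clr4oe, 36.5, 44.2 and 37.4 CPM per kb in K587A, and 45.1, 27.7 and 27.99 CPM per kb in TetR-Mit1. As CPM it had 6.75 and 7.73 CPM in clr4oe, 9.86, 11.9 and 10.1 CPM in K587A, and 12.2, 7.49 and 7.56 CPM in TetR-Mit1. It was lower in clr4oe than in K587A (log2 -0.56 ± 0.19, edgeR adjusted p = 0.012), a call lost without K587A replicate 2 (log2 -0.46, edgeR adjusted p = 0.0595) or without clr4oe replicate 1 (log2 -0.47, edgeR adjusted p = 0.108). In K587A against TetR-Mit1 mfm3 did not pass (log2 0.24 ± 0.17, edgeR adjusted p = 0.242), but it did without TetR-Mit1 replicate 1 (log2 0.51, edgeR adjusted p = 0.0141).

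Genes of both mating types were counted because the labels do not give the type, and a culture could hold cells of either. Against TetR-Mit1, 7 genes known for M cells (mfm1, mfm2, mfm3, mam1, mam2, mam3 and sxa2) gave 2 higher and none lower in clr4oe, and 2 lower and none higher in K587A. In the same comparisons 5 genes known for P cells (map1, map2, map3, map4 and sxa1) gave 2 higher and 1 lower in clr4oe, and 1 higher and 2 lower in K587A. The gene higher in K587A was map3, whose reads cannot be told apart from those of his6 without the strand setting. Of all tested genes 65.1% were called in clr4oe and 52.3% in K587A, so the calls of the M genes, 2 of 7 in each comparison, were fewer than the background, and those of the P genes, 3 of 5 in each, were near it. The median log2 fold changes in K587A and in clr4oe, each against TetR-Mit1, were -0.16 and 0.16 for the M genes and -0.29 and -0.01 for the P genes. Genes of both types had counts in every genotype, but so did nearly all genes, with 4900 to 4906 of 4915 rows counted per library. The mating type of the cells therefore cannot be read from the presence of counts.

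Genes under Ste11 and around it were then described from lists of mating and meiotic genes, also chosen with earlier results known. Of 9 mating and meiotic entry genes in the table, 5 were lower and none higher in K587A against TetR-Mit1 (median log2 fold change -0.23), 6 were higher and 2 lower in clr4oe against TetR-Mit1 (median 0.24), and 7 were higher and 1 lower in clr4oe against K587A (median 0.57). The medians of all tested genes are 0.01, -0.00258 and -0.01, and 52.3%, 65.1% and 71.7% of them were called. The 5 calls in K587A are near that background, with all 5 in the lower direction, which took 25% of all tested genes, and the 8 calls in each clr4oe comparison are above it. Of the list's 11 names, dni1 and dni2 were not analysed here.

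Mei2 is the RNA-binding protein that drives entry into meiosis. Its gene had 36.04 and 41.2 CPM in clr4oe, 19.4, 17.8 and 19.1 CPM in K587A, and 83.7, 70.0 and 70.8 CPM in TetR-Mit1. The 3 genotypes did not overlap and stood in the same order as for ste11. The log2 fold change was -1.996 ± 0.08 in K587A (edgeR adjusted p = 2.95e-16) and -0.96 ± 0.08 in clr4oe (edgeR adjusted p = 3.33e-10), each against TetR-Mit1. The mei2 window holds 2 full TR boxes, printed above. Among the other list genes, rgs1, mam4, ste7, rep1, mfm1, mfm3 and tor1 also have the full box, not printed. In K587A against TetR-Mit1 the log2 fold changes of rgs1, mam4 and ste7 were -0.27, 0.25 and -1.22. In clr4oe against TetR-Mit1 they were -0.72, -0.43 and 0.24, while rep1, mfm1 and mfm3 passed in neither comparison. For tor1 the log2 fold changes were -0.16 ± 0.05 in K587A (edgeR adjusted p = 0.0133) and 0.10 ± 0.06 in clr4oe (edgeR adjusted p = 0.131), each against TetR-Mit1.

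The gene map1, for a MADS-box transcription factor of P cells, was lower in both strains. It had 7.44 and 10.1 CPM in clr4oe, 9.45, 6.95 and 9.17 CPM in K587A, and 17.2, 17.3 and 19.2 CPM in TetR-Mit1. Its log2 fold change was -1.03 ± 0.15 in clr4oe (edgeR adjusted p = 1.87e-06) and -1.08 ± 0.14 in K587A (edgeR adjusted p = 3.17e-07), each against TetR-Mit1. The other mating-type transcription factor genes of that list, 8 names at the mat cassettes, were not analysed here.

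The gene ste7, needed for conjugation, had 78.5 and 72.9 CPM in clr4oe, 32.5, 22.8 and 27.4 CPM in K587A, and 77.1, 56.1 and 59.3 CPM in TetR-Mit1. All K587A libraries were below all others, with a log2 fold change of -1.22 ± 0.11 against TetR-Mit1 (edgeR adjusted p = 5.36e-10). In clr4oe against TetR-Mit1 it was 0.24 ± 0.10 (edgeR adjusted p = 0.0488), a call that was lost with DESeq2 (log2 0.24, DESeq2 adjusted p = 0.304), with upper-quartile scaling (log2 0.19, edgeR adjusted p = 0.117) and without TetR-Mit1 replicate 2 (log2 0.15, edgeR adjusted p = 0.256). The value was 0.39 without TetR-Mit1 replicate 1 (edgeR adjusted p = 0.00119), and without TetR-Mit1 replicate 3 or either clr4oe replicate the call was also lost (edgeR adjusted p = 0.187, 0.283 and 0.0779).

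Of the other mating and meiotic entry genes, mam3, map4 and fus1 moved together against TetR-Mit1, higher in clr4oe and lower in K587A. None of the rest passed in K587A. The log2 fold changes of mam3 and map4, which encode cell adhesion proteins of M and P cells, were 0.24 ± 0.07 and 0.28 ± 0.08 in clr4oe, and -0.33 ± 0.07 and -0.29 ± 0.07 in K587A, each against TetR-Mit1 (edgeR adjusted p = 0.00583, 0.00211, 0.000335 and 0.00188). Without clr4oe replicate 1 the mam3 call in clr4oe was lost (log2 0.21, edgeR adjusted p = 0.062). Fus1, a formin needed for cell fusion, had a log2 fold change of 0.35 ± 0.08 in clr4oe (edgeR adjusted p = 0.000685) and -0.23 ± 0.08 in K587A (edgeR adjusted p = 0.0169). The K587A value of fus1 was -0.13 without K587A replicate 1 (edgeR adjusted p = 0.17) and -0.20 without TetR-Mit1 replicate 3 (edgeR adjusted p = 0.074). The remaining genes, prm1, cfr1 and rep1, were named after their values were seen. The cell fusion gene prm1 had a log2 fold change of -0.19 ± 0.04 in clr4oe (edgeR adjusted p = 0.000114) and -0.06 ± 0.03 in K587A (edgeR adjusted p = 0.128), each against TetR-Mit1. For cfr1 the values were 0.29 ± 0.05 in clr4oe (edgeR adjusted p = 9.34e-06) and 0.07 ± 0.04 in K587A (edgeR adjusted p = 0.228), and rep1 passed in neither. Mei3, which inhibits the kinase Pat1, averaged 2.25 CPM in clr4oe (n = 2), 0.781 CPM in K587A and 0.845 CPM in TetR-Mit1 (n = 3 each), and its call in clr4oe (log2 1.42 ± 0.47, edgeR adjusted p = 0.0104) was lost without clr4oe replicate 2 (edgeR adjusted p = 0.0962) or TetR-Mit1 replicate 3 (edgeR adjusted p = 0.0607).

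**Figure D5:**
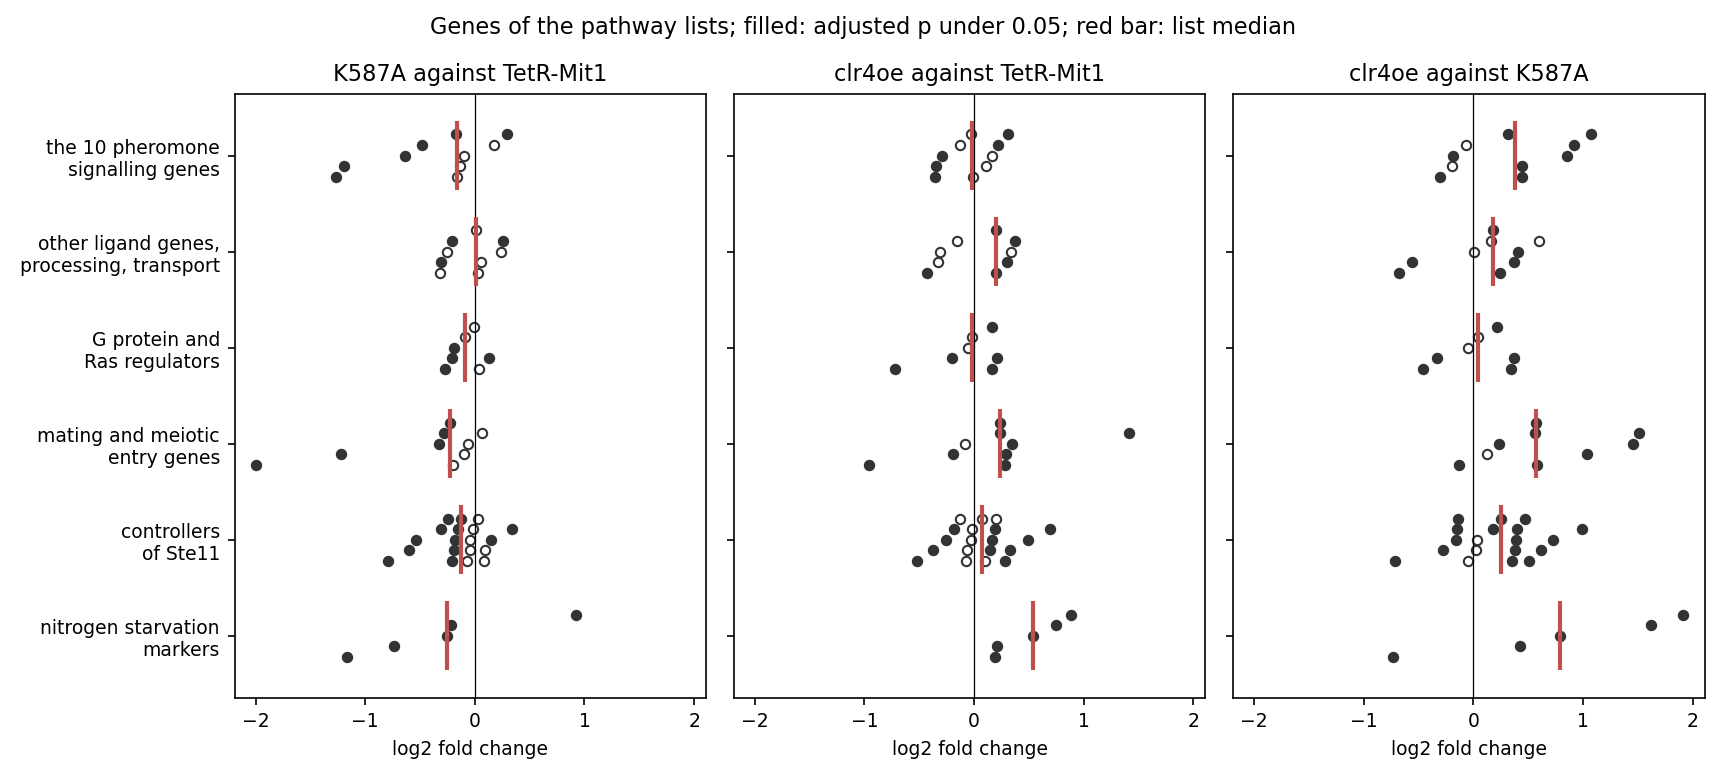
Log2 fold changes (horizontal axes) of single genes (points) in the 10 pheromone signalling genes and 5 pathway lists, for the 3 comparisons. Filled points passed an adjusted p of 0.05 and red bars are list medians; the mating and meiotic entry genes have a median of -0.23 in K587A against TetR-Mit1 and 0.24 in clr4oe against TetR-Mit1.

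The list of 7 regulators of the G protein, Ras1 and the MAPK cascade gave 3 genes higher and 2 lower in clr4oe, and 1 higher and 3 lower in K587A, each against TetR-Mit1. These 5 and 4 calls among 7 genes are near the background of 65.1% and 52.3% of all tested genes. Rgs1, which shuts off the pheromone G protein and is itself induced by the pathway, had the lowest log2 fold change of this list in clr4oe against TetR-Mit1. Its gene had 25.2 and 24.3 CPM in clr4oe, 32.4, 36.4 and 33.0 CPM in K587A, and 39.9, 40.5 and 42.5 CPM in TetR-Mit1, with no overlap between genotypes. Relative to TetR-Mit1 the log2 fold change was -0.72 ± 0.09 in clr4oe (edgeR adjusted p = 6.31e-08) and -0.27 ± 0.07 in K587A (edgeR adjusted p = 0.00383). It thus differed from ste11 in its order, with clr4oe below K587A (log2 -0.46 ± 0.09, edgeR adjusted p = 6.03e-05). The ras1 gene had log2 fold changes of 0.16 ± 0.05 in clr4oe (edgeR adjusted p = 0.0113) and -0.19 ± 0.05 in K587A (edgeR adjusted p = 0.00255), each against TetR-Mit1. The clr4oe call of ras1 was lost under upper-quartile scaling (edgeR adjusted p = 0.076) and without clr4oe replicate 1 (edgeR adjusted p = 0.0825).

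The list of 9 other genes for ligands and their processing, transport or breakdown gave 4 genes higher and 1 lower in clr4oe, and 1 higher and 2 lower in K587A, each against TetR-Mit1. With 5 and 3 of 9 genes called, the list was below the background of 65.1% and 52.3%. Mam4, which methylates the end of M-factor, had a log2 fold change of -0.43 ± 0.08 in clr4oe (edgeR adjusted p = 6.63e-05) and 0.25 ± 0.07 in K587A (edgeR adjusted p = 0.00353).

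Ste11 is controlled by nutrient signalling, and 19 genes of those routes were listed. Against TetR-Mit1, clr4oe had 7 of them higher and 4 lower, and K587A had 2 higher and 10 lower. The 11 calls among 19 genes in clr4oe are a smaller share than the 65.1% of all tested genes, and the 12 calls in K587A are near the 52.3%, with 25% of all tested genes lower. Pat1, the kinase that inhibits Ste11 and Mei2, averaged 32.5 ± 0.170 CPM in clr4oe (SD, n = 2), 16.3 ± 2.88 CPM in K587A and 28.3 ± 1.96 CPM in TetR-Mit1 (SD, n = 3 each). Its log2 fold change was -0.79 ± 0.11 in K587A against TetR-Mit1 (edgeR adjusted p = 7.14e-07) and 0.20 ± 0.11 in clr4oe against TetR-Mit1 (edgeR adjusted p = 0.107). Git3 and gpa2, the receptor and the G protein alpha subunit of the glucose route to cAMP, were lower in both strains. Their log2 fold changes were -0.25 ± 0.04 and -0.52 ± 0.04 in clr4oe, and -0.60 ± 0.04 and -0.54 ± 0.04 in K587A (edgeR adjusted p = 2.44e-05, 2.19e-10, 5.41e-12 and 2.29e-11). Further genes of this route, named after their values were seen, did not all follow. In clr4oe pka1 and cyr1 were higher, at 0.19 ± 0.04 and 0.17 ± 0.05 (edgeR adjusted p = 0.0006 and 0.00833), and git5 and cgs1 did not pass. In K587A pka1 and git5 were lower, at -0.20 ± 0.04 and -0.31 ± 0.07 (edgeR adjusted p = 0.000195 and 0.000799), and cyr1 and cgs1 did not pass.

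Others of these controllers were higher in clr4oe. Gad8, a kinase downstream of Tor, had a log2 fold change of 0.49 ± 0.05 in clr4oe against TetR-Mit1 (edgeR adjusted p = 8e-10). Msa1, an RNA-binding protein that holds back sexual differentiation, had 0.69 ± 0.07 (edgeR adjusted p = 1.04e-08), and pcr1, the partner of the stress factor Atf1, had 0.33 ± 0.05 (edgeR adjusted p = 1.53e-06). In K587A against TetR-Mit1, pcr1 was lower (log2 -0.18 ± 0.04, edgeR adjusted p = 0.00173) and msa1 did not pass (log2 -0.04 ± 0.07, edgeR adjusted p = 0.637). There gad8 was also lower (log2 -0.13 ± 0.04, edgeR adjusted p = 0.0175). That call was lost without TetR-Mit1 replicate 3 (edgeR adjusted p = 0.0752) or K587A replicate 3 (edgeR adjusted p = 0.0887). Nrd1, an RNA-binding repressor of Ste11-dependent genes, had -0.38 ± 0.10 in clr4oe (edgeR adjusted p = 0.00151) and 0.34 ± 0.08 in K587A (edgeR adjusted p = 0.00118). The clr4oe value of nrd1 was -0.20 without clr4oe replicate 2 (edgeR adjusted p = 0.115) and -0.57 without clr4oe replicate 1 (edgeR adjusted p = 0.00033).

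Genes known to rise in nitrogen starvation were listed beside them. All 5 (amt1, isp4, isp6, psp3 and fnx1) were called in each comparison, with 5 higher in clr4oe, and 4 lower and 1 higher in K587A, each against TetR-Mit1. Of all tested genes 65.1% were called in the first of these and 52.3% in the second, and setting clr4oe against K587A called 71.7%. The ammonium transporter gene amt1 averaged 261 CPM in clr4oe (n = 2), 69.4 CPM in K587A and 156 CPM in TetR-Mit1 (n = 3 each), with log2 fold changes of 0.75 ± 0.06 in clr4oe (edgeR adjusted p = 3.28e-11) and -1.17 ± 0.06 in K587A (edgeR adjusted p = 1.85e-14). For the protease genes isp6 and psp3 the log2 fold changes were 0.88 ± 0.04 and 0.54 ± 0.04 in clr4oe, and -0.73 ± 0.04 and -0.25 ± 0.04 in K587A. The oligopeptide transporter gene isp4 was higher in both, by 0.19 ± 0.05 in clr4oe and 0.93 ± 0.05 in K587A (edgeR adjusted p = 0.00261 and 9.9e-15). In K587A 4 of the 5 markers moved in the direction of ste11, and in clr4oe against TetR-Mit1 all 5 moved in the opposite direction; their part in the ste11 values was not tested.

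The genes whose profile was most like that of ste11 were found by the Euclidean distance between log2 CPM values centred over the 8 libraries, among 4808 other genes whose mean CPM reached 5. They were pho841 (SPBC1683.01), SPCPB1C11.03, SPAPJ691.02, SPAC27D7.11c and sro1 (SPBC1347.11), at distances of 0.237, 0.390, 0.426, 0.450 and 0.486, against a median of 1.68. Their log2 fold changes against TetR-Mit1 ran from -1.45 to -1.04 in K587A and from -0.59 to -0.10 in clr4oe. The genes were picked on these same libraries, so values near those of ste11 follow from the choice. For mfm2, which varied little, the nearest genes were cbp8, SPCC1620.13, alg3, alg9 and tho4, at distances from 0.0988 to 0.167 against a median of 0.554. The libraries of a genotype share its strain, so a small distance describes these 8 libraries.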

How the data were processed

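Per the labels, polyadenylated RNA of 9 samples in 3 genotypes was prepared; 8 library columns were matched to samples by the library letter, and clr4oe replicate 3 was not analysed here. The deposited values are raw counts per gene in the format of STAR, per the file headers. The submitters' processing notes also name SAMtools, DESeq2 and the build ASM294v2; versions, annotation and strand setting are not given in the sources used here. Symbols came from RefSeq ASM294v3 (4906 identifiers matched, 9 did not), as did transcript lengths, overlaps and upstream sequences.

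Counts were tested with edgeR 4.0.16 in R 4.3.3: filterByExpr (4887 genes kept, 28 removed), TMM scaling, and the quasi-likelihood F test in 1 fit of all 8 libraries with genotype as the factor. Benjamini-Hochberg adjustment covered every tested gene, and the threshold was 0.05. CPM values are TMM-normalised. The standard error is the absolute log2 fold change divided by the square root of F. Log2 CPM for distances used a prior count of 2. The design had been written for 9 libraries. The code was tested on simulated data. A count of 3, taken as the smallest detectable value, is 0.188 to 0.289 CPM by library and covers counting error only.

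The 10 genes and all lists were chosen with earlier results of these data known. Named were the 10 genes, list genes past the threshold with an absolute log2 fold change of at least 0.5 in a comparison, and mei2, map2, mfm1, mfm3, rgs1, ras1, pat1, mit1 and clr4 whatever their values; his6 and hem4 were added after the overlaps were seen. Replicate numbers were not taken as pairs of libraries. The alternatives tried were upper-quartile and median-of-ratios scaling, DESeq2 1.42.0, looser and stricter count filters, fits to the 2 compared groups, the replicate block, and removal of each library; with 1 clr4oe library left, that library was assumed to vary like the other groups.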

Additional observations from a re-analysis of the deposited data

How the results depend on the processing

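The counts of called genes, among the 10 and among all tested genes, stayed within 1.5 times of the reported ones under every alternative run. With single libraries left out, 6 to 8 of the 10 were called in K587A against TetR-Mit1, 4 to 6 in clr4oe against TetR-Mit1 and 8 to 9 in clr4oe against K587A (2269 to 2350, 2795 to 3053 and 3163 to 3404 of all genes). With the replicate block, 6, 6 and 8 of the 10 were called; mam2 in clr4oe against TetR-Mit1 was added (log2 0.21, edgeR adjusted p = 0.0368). The deviations of same-numbered libraries correlated at 0.113, -0.0621 and 0.106 in K587A and TetR-Mit1. They correlated at -0.0158 and 0.0829 in clr4oe and TetR-Mit1, and at -0.118 and -0.0852 in clr4oe and K587A. The numbers were not taken as pairs, but groups of 2 or 3 libraries are too small to show whether they are.

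No called value changed sign. Under upper-quartile scaling, uncalled values turned to -0.054 (map2), -0.013 (map1) and -0.040 (gpa2) in clr4oe against K587A; it also called 9 of the 10 there by adding ste6 (log2 -0.26, edgeR adjusted p = 0.0346). The remaining sign changes came with single libraries left out. In K587A against TetR-Mit1 the ranges were -0.59 to 0.033 (map2), -0.79 to 0.34 (mei3), -0.11 to 0.011 (msa1) and -0.057 to 0.038 (hem4). In clr4oe against TetR-Mit1 they were -0.059 to 0.028 (map3), -0.36 to 0.081 (ste4), -0.057 to 0.64 (mfm1) and -0.58 to 0.043 (map2). In clr4oe against K587A they were -0.17 to 0.043 (mfm2), -0.20 to 0.21 (map2), -0.17 to 0.26 (map1) and -0.014 to 0.077 (gpa2). The cause was not tested. With 2 clr4oe libraries and 1 strain per genotype, differences between strains were not measured.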
